A study of Mus musculus with 6 samples.

Results

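The 10 genes described here encode the ligands and receptors of the vascular endothelial growth factor (VEGF) and angiopoietin systems: the ligands Vegfa, Vegfb, Vegfc, Angpt1 and Angpt2, and the receptors Kdr, Flt1, Flt4, Tek and Tie1. They were taken by name, and every array probe set annotated to exactly 1 of these symbols was used, which gave 19 probe sets for 10 of the 18193 genes measured (10 probe sets for ligands and 9 for receptors). Heart tissue was compared between GRK2+/- mice and their wild-type (WT) C57BL/6J littermates. The GRK2+/- mice carry 1 targeted copy of the gene for G protein-coupled receptor kinase 2. The allele is Adrbk1tm1Mca, crossed back to C57BL/6J for more than 20 generations. All animals were 9 months old, each group held 3 hearts with 1 Affymetrix array per heart, and no treatment other than anaesthesia and arrest of the heart with potassium chloride was named. The labels name no promoter or Cre driver that would limit the allele to a cell type, and they do not give the sex of the animals. The piece taken was the upper part of the heart, so atria, valves and the roots of large vessels may have been included.

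VEGF ligands are secreted proteins that bind receptor tyrosine kinases on endothelial cells: VEGF-A signals mainly through the receptor encoded by Kdr, Flt1 binds VEGF-A and VEGF-B and can act as a decoy, and VEGF-C acts through the receptor encoded by Flt4, best known from lymphatic vessels, and also through that of Kdr. The angiopoietins act on the receptor encoded by Tek, for which Angpt1 is a stabilising agonist made by cells around the vessel and Angpt2 a context-dependent ligand made by endothelium; Tie1 is a related receptor that modulates Tek. In the heart the cardiomyocytes are a main source of VEGF-A and VEGF-B, and the receptors are carried by the dense capillary bed.

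Values are the deposited log2 expression values, whose range was 3.44 to 15.1 and whose array medians lay between 6.26 and 6.31. No probe set of the annotation used here named Grk2, so the genotype was not checked by the targeted gene. The 12 cardiomyocyte markers measured averaged 14.5, near the top of the scale, and the 17 endothelial markers averaged 9.66. RNA integrity was read from control probe sets at both ends of the beta-actin transcript, whose 3′ value exceeded the 5′ value by 0.90, 1.06 and 0.97 in the GRK2+/- hearts and 0.80, 0.80 and 0.73 in the WT hearts, without overlap. For Gapdh the excess was 0.012, 0.041 and 0.036 against 0.049, -0.0069 and -0.027, and for pyruvate carboxylase 1.77, 1.70 and 1.84 against 1.78, 1.69 and 1.76. The part of RNA integrity in the differences below was not tested. In whole tissue, fewer cells of a type and less RNA per cell cannot be told apart.

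The promoter sequences of the 3 VEGF ligands and short stretches of 2 receptors are shown because Vegfc and Kdr stood apart from Vegfa, Vegfb and Flt1 in the hearts. They come from the RefSeq promoter table (build GRCm38.p6), which held 8 of the 10 genes. Each ligand sequence covers the 250 bases before the annotated start, 5′ to 3′ on the gene's strand. Capitals mark matches on either strand to GGGCGG (the GC box bound by Sp1), GCGNGGGCG (the site of EGR factors), ACGTG or GCGTG (cores of the hypoxia response element), TGACGTCA (the cyclic AMP response element) or TATAAA (the TATA box). A GC box can overlap an EGR site, and GCGTG can lie inside one.
Vegfc, chr8:54077282-54077531, plus strand: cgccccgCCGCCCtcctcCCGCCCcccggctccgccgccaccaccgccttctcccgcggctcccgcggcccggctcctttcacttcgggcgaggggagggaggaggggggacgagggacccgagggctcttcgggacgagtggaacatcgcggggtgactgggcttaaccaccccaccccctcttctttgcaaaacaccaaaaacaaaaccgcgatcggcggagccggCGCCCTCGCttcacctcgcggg
Vegfa, chr17:46032378-46032627, minus strand: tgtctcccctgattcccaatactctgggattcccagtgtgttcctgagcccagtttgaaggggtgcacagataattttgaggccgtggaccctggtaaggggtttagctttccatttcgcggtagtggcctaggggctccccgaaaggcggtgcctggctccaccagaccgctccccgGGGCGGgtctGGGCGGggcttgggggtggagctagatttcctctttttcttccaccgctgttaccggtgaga
Vegfb, chr19:6987652-6987901, minus strand: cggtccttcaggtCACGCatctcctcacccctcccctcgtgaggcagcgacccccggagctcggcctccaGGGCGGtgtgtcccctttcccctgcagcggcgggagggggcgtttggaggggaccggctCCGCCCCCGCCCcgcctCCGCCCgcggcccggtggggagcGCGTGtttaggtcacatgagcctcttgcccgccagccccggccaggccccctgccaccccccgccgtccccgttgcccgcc
The 30 bases from each receptor are centred on the rarest of these motifs that its window holds, and only that motif is in capitals. Both lie before the start listed in the table, which for these 2 receptors is not the outer start of the gene model.
Kdr, chr5:75978570-75978599, minus strand: agtgggggagtggGCGTGggaaaccgggaa
Flt1, chr5:147726074-147726103, minus strand: gggggacccctTGACGTCActggaaggagg

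The Vegfc window held an EGR site at -22 to -14 from the start and 2 GC boxes further upstream. The Vegfa window shown held 2 GC boxes, a second Vegfa window at an inner start held 1 GC box, an ACGTG core and a GCGTG core, and the Vegfb window held 4 GC boxes, an EGR site and 2 GCGTG cores. The Kdr window held 2 GCGTG cores and 2 GC boxes. Flt1 was the 1 member with a cyclic AMP response element, at -81 to -74, and with a TATA box, at -31 to -26, beside a GCGTG core, 3 GC boxes and 2 EGR sites. The Flt4 window held 3 GC boxes, and those of Tek and Tie1 held none of these letters. Over the 32851 promoter windows of the same length, a GC box was present in 32.7%, GCGTG in 28.2%, ACGTG in 16.6%, a TATA box in 12.4%, an EGR site in 4.70% and a cyclic AMP response element in 1.55%. A match is a description of letters and does not show binding.

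Across the 19 probe sets, the differences farthest from 0 were those of the 3 Vegfc probe sets, Kdr and 1 of 2 probe sets each of Angpt1 and Angpt2, all with higher means in GRK2+/- hearts. The other probe sets of Angpt1 and Angpt2 differed by 0.03 and -0.12, while those of Vegfa, Vegfb and Flt1 lay between -0.20 and 0.12. None passed an adjusted p of 0.05 (limma, Benjamini-Hochberg adjustment over all 45037 probe sets; 0% of which passed), and the smallest adjusted p among the members was 0.145. At an unadjusted p under 0.05, 7 of the 19 probe sets were higher in GRK2+/- hearts, 1 was lower and 11 were neither, beside 5.44% of all probe sets higher and 7.4% lower. The same 7 were those in which all 3 GRK2+/- values exceeded all 3 WT values, beside 6.76% of all probe sets, and 1 lay wholly below, beside 11.2%. The median difference of the 19 was 0.099, against -0.021 over all probe sets, and it was 0.066 without WT heart 3. With 3 hearts against 3, an exact permutation test of a single value cannot give a two-sided p below 0.1.

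**Figure D1:**
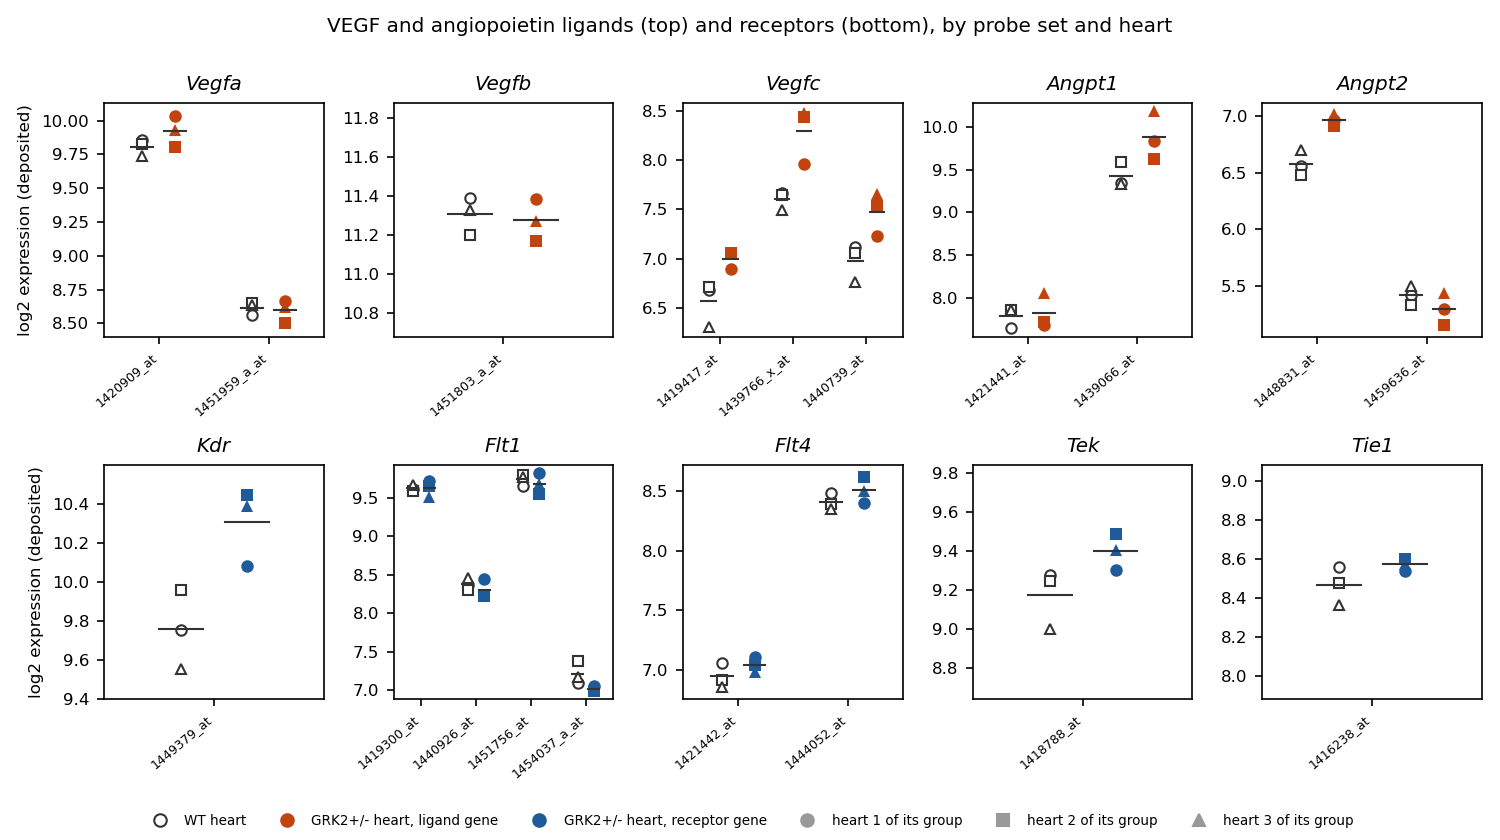
Deposited log2 expression of each probe set in each heart, ligand genes in the top row and receptor genes in the bottom row. Open symbols are WT hearts and filled symbols GRK2+/- hearts. The symbol shape gives the heart's number within its group, and hearts were not treated as paired by number. Horizontal bars are group means (n = 3). Levels of different probe sets are not comparable with each other. All 3 Vegfc probe sets and that of Kdr show GRK2+/- hearts above WT hearts, with GRK2+/- heart 1 the lowest of its group.

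Vegfc, a ligand of lymphatic and blood endothelium, was read by 3 probe sets, and in each of them the groups did not overlap. On 1439766_x_at the values were 7.96, 8.43 and 8.48 in GRK2+/- hearts and 7.66, 7.64 and 7.49 in WT hearts, a difference of 0.69 ± 0.13 (SE, n = 3 per group), or 1.61-fold, with limma's adjusted p = 0.145. The suffix of that probe set marks probes that may also bind other transcripts, so its value is the least certain of the 3. On 1440739_at the values were 7.23, 7.54 and 7.66 against 7.12, 7.06 and 6.77, a difference of 0.49 ± 0.12. On 1419417_at they were 6.90, 7.06 and 7.05 against 6.68, 6.71 and 6.31, a difference of 0.43 ± 0.11. GRK2+/- heart 1 was the lowest of its group on all 3 and WT heart 3 the lowest of the WT hearts. Without GRK2+/- heart 1 the difference on 1439766_x_at was 0.86 with limma's adjusted p = 0.0144 (0.0144 to 0.484 over all alternatives run), the 1 case in which a member passed over all probe sets when a heart was left out. Without that heart, 41 of all 45037 probe sets passed.

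Vegfa, the central angiogenic ligand, had 2 probe sets, and on both the groups overlapped. On 1420909_at the values were 10.03, 9.81 and 9.93 in GRK2+/- hearts and 9.86, 9.83 and 9.74 in WT hearts, a difference of 0.12 ± 0.08 that was 0.063 without GRK2+/- heart 1. On 1451959_a_at they were 8.67, 8.50 and 8.62 against 8.56, 8.65 and 8.64, a difference of -0.018 ± 0.073. Vegfb, a ligand of Flt1 linked to fatty acid handling in muscle, had values of 11.38, 11.17 and 11.27 against 11.39, 11.20 and 11.33 on 1451803_a_at, a difference of -0.031 ± 0.083. Both differences near 0 were smaller than the spread between hearts of 1 group.

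Angpt1, the agonist of Tek, gave different values by probe set. On 1439066_at the values were 9.83, 9.63 and 10.19 in GRK2+/- hearts and 9.34, 9.60 and 9.34 in WT hearts, a difference of 0.46 ± 0.13 (1.37-fold; limma's adjusted p = 0.238). The groups did not overlap there, although GRK2+/- heart 2, at 9.63, lay next to WT heart 2, at 9.60, and the difference was 0.30 without GRK2+/- heart 3. On 1421441_at the values were 7.68, 7.71 and 8.05 against 7.64, 7.86 and 7.86, a difference of 0.03 ± 0.11, with overlapping groups and GRK2+/- heart 3 alone above the WT range. The mean of the 2 probe sets differed by 0.24.

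Angpt2, the context-dependent ligand of Tek, also split. On 1448831_at the values were 6.97, 6.91 and 7.02 in GRK2+/- hearts and 6.56, 6.48 and 6.70 in WT hearts, a difference of 0.38 ± 0.08 (1.31-fold; limma's adjusted p = 0.162). All 3 GRK2+/- hearts lay close together and above the WT hearts. On 1459636_at the values were 5.30, 5.15 and 5.44 against 5.42, 5.33 and 5.50, a difference of -0.12 ± 0.09 (-0.19 to -0.050 with single hearts left out), and that probe set was the dimmest of the 19, at the 31.4th percentile of all probe sets. The mean of the 2 probe sets differed by 0.13.

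Kdr, the main signalling receptor for VEGF-A, had the largest difference among the receptors. On its 1 probe set, 1449379_at, the values were 10.08, 10.45 and 10.39 in GRK2+/- hearts and 9.75, 9.96 and 9.55 in WT hearts. The difference was 0.55 ± 0.12 (SE, n = 3 per group), or 1.46-fold, with limma's adjusted p = 0.177. As for Vegfc, GRK2+/- heart 1 was the lowest of its group and WT heart 3 the lowest of the WT hearts. Leaving out 1 heart at a time gave differences between 0.45 and 0.66.

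Flt1, the VEGF-A and VEGF-B receptor with decoy activity, was read by 4 probe sets. On 1419300_at the values were 9.72, 9.66 and 9.52 in GRK2+/- hearts and 9.62, 9.59 and 9.67 in WT hearts, a difference of 0.007 ± 0.076. The differences on 1440926_at and 1451756_at were -0.075 ± 0.082 (-0.14 to -0.035 with single hearts left out) and -0.059 ± 0.087, and the groups overlapped on all of these. On 1454037_a_at the values were 7.06, 7.00 and 6.99 against 7.10, 7.39 and 7.17, a difference of -0.20 ± 0.09 (limma's adjusted p = 0.359), the 1 member probe set whose GRK2+/- values all lay below the WT values. Without WT heart 2 that difference was -0.12. Which Flt1 transcripts each probe set reads, membrane-bound or soluble, is not given by the annotation used here.

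Flt4, the VEGF-C receptor of lymphatic endothelium, differed by 0.097 ± 0.078 on 1421442_at and 0.099 ± 0.079 on 1444052_at. With single hearts left out these ran from 0.053 (without WT heart 3) to 0.16 (without WT heart 1) and from 0.043 (without GRK2+/- heart 2) to 0.15 (without GRK2+/- heart 1). On the second the values were 8.41, 8.62 and 8.50 in GRK2+/- hearts and 8.49, 8.39 and 8.36 in WT hearts, so the groups overlapped. Tek, the angiopoietin receptor, had values of 9.30, 9.49 and 9.40 against 9.27, 9.25 and 9.00 on 1418788_at, a difference of 0.23 ± 0.09 (limma's adjusted p = 0.347). The groups did not overlap, by a margin set by GRK2+/- heart 1 and WT heart 1, and the difference was 0.14 without WT heart 3. Tie1, its partner, had values of 8.54, 8.60 and 8.57 against 8.56, 8.47 and 8.36 on 1416238_at, a difference of 0.11 ± 0.07 with overlap, and 0.055 without WT heart 3.

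**Figure D2:**
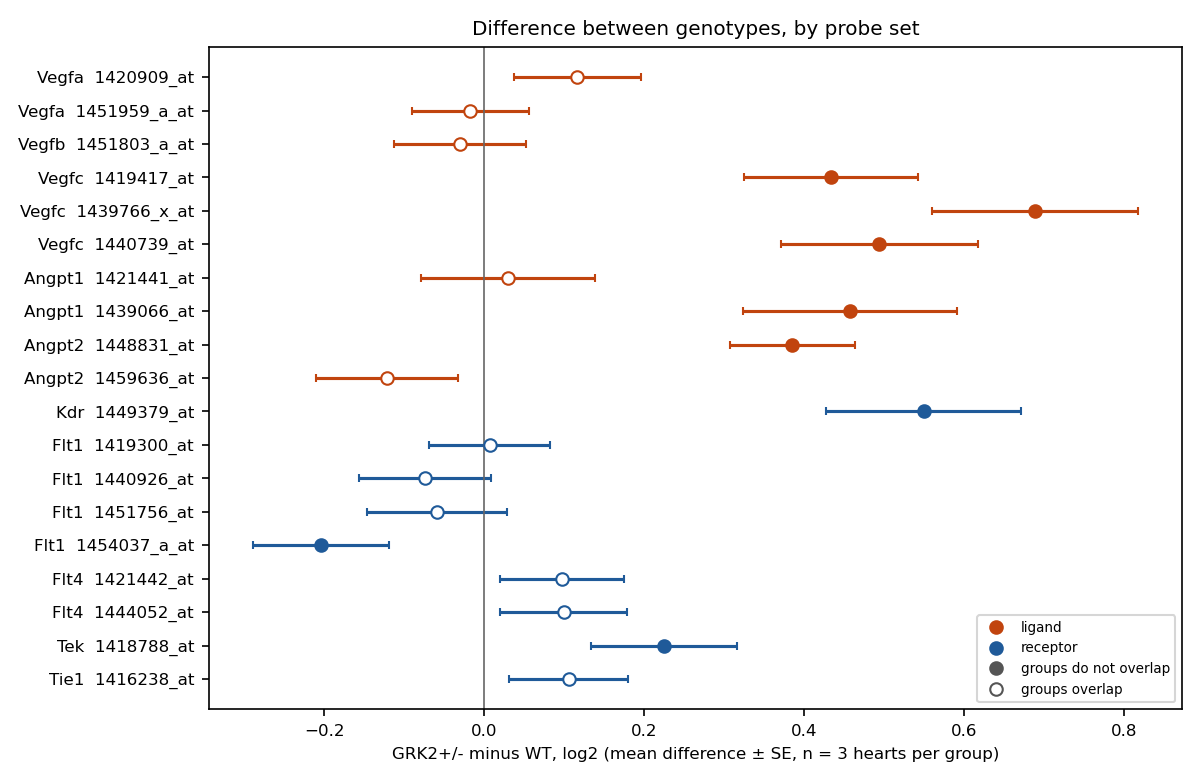
Difference between GRK2+/- and WT means on the log2 scale for each of the 19 probe sets, with limma's standard error (n = 3 hearts per group); red-brown marks ligands, blue receptors, filled symbols probe sets whose groups do not overlap. The 3 Vegfc probe sets and Kdr lie between 0.43 and 0.69, the Vegfa, Vegfb and Flt1 probe sets between -0.20 and 0.12, and the paired probe sets of Angpt1 and of Angpt2 lie apart from each other.

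The ligands were set against the receptors heart by heart, as the mean deviation of each gene from its WT mean. With the brightest probe set of each gene, the 5 ligands averaged 0.29, 0.25 and 0.43 in GRK2+/- hearts 1, 2 and 3, and 0.019, 0.006 and -0.025 in the WT hearts. The 5 receptors averaged 0.12, 0.23 and 0.20 against 0.035, 0.065 and -0.10. Ligands minus receptors was therefore 0.17, 0.015 and 0.23 in GRK2+/- hearts and -0.017, -0.059 and 0.076 in WT hearts, with GRK2+/- heart 2 inside the WT range. With the mean of each gene's probe sets the same quantity was 0.038, -0.13 and 0.11 against -0.034, -0.051 and 0.085, and its group difference was 0.0075 in place of 0.14. The ligand average depended on the probe set rule (0.32 with the brightest, 0.19 with the mean). Averaging moved Angpt2 from 0.38 to 0.13, Angpt1 from 0.46 to 0.24, Vegfc from 0.69 to 0.54 and Vegfa from 0.12 to 0.049. The receptor average was 0.18 under both rules. No test was made of these averages.

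**Figure D3:**
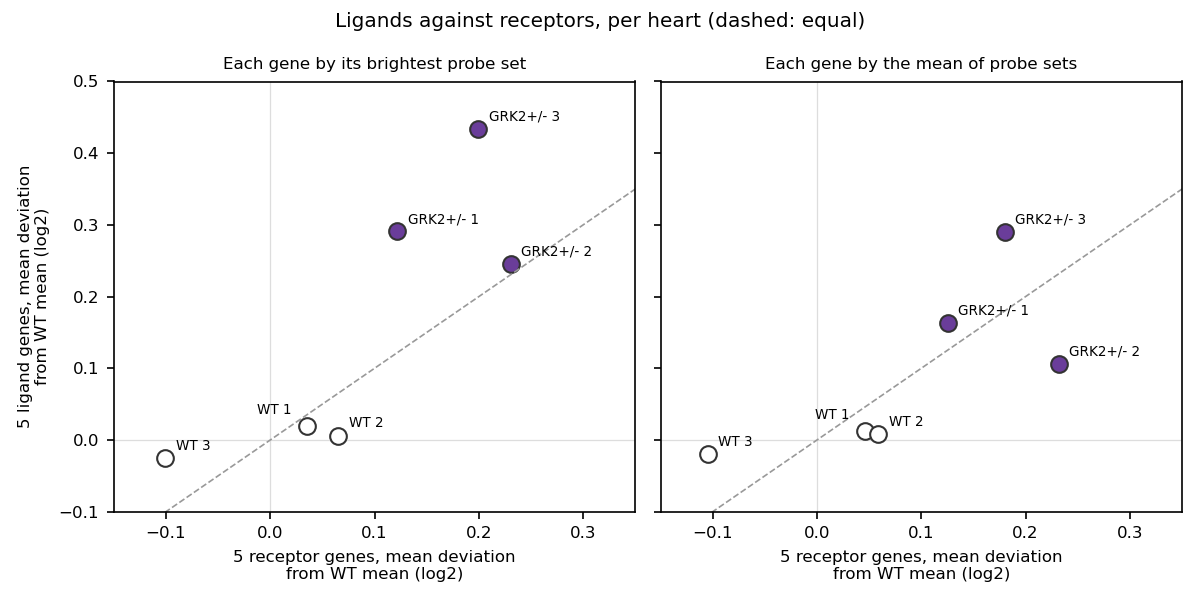
Mean log2 deviation from the WT mean over the 5 ligand genes (vertical) and the 5 receptor genes (horizontal) in each of the 6 hearts; left, each gene by its brightest probe set; right, by the mean of its probe sets; the dashed line marks equal values. On the left GRK2+/- hearts 1 and 3 lie above the line and heart 2 near it; on the right heart 2 lies below it.

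Differences between members of 1 family were read heart by heart. Kdr minus Flt1, with the brightest probe set of each and relative to the WT mean, was 0.24, 0.89 and 0.70 in GRK2+/- hearts and 0.085, 0.14 and -0.23 in WT hearts. Vegfc minus Vegfa was 0.13, 0.83 and 0.75 against 0.015, 0.025 and -0.040. In both pairs the groups did not overlap, and GRK2+/- heart 1 lay nearest to the WT hearts. Vegfc was read there by 1439766_x_at, whose probes may also bind other transcripts. With each gene's probe sets averaged, Vegfc minus Vegfa was 0.17, 0.68 and 0.61 against 0.11, 0.062 and -0.17. Angpt2 minus Angpt1 was -0.022, 0.13 and -0.33 against 0.066, -0.27 and 0.21, with overlapping groups. Tek minus Tie1 was 0.058, 0.18 and 0.12 against 0.009, 0.065 and -0.074, with overlap between GRK2+/- heart 1 and WT heart 2. These pairs were taken with the members' values known and were not tested.

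The other genes of the pathway were described in 5 lists, with the brightest probe set of each gene. Of 122 distinct genes measured, 0 passed an adjusted p of 0.05 over all 18193 genes (limma; 0% of all genes), 25 (20.5%) were higher in GRK2+/- hearts at an unadjusted p under 0.05, beside 6.3% of all genes, and 12 (9.84%) were lower, beside 7.7%. Among 23 other ligands, co-receptors and partners, 3 were higher and 0 lower, with a median difference of 0.11 (0.063 with probe sets averaged) against -0.019 over all genes. These were Nrp1, the VEGF co-receptor neuropilin 1 (0.31 ± 0.12, with 4 of 4 probe sets in that direction, and 0.18 without WT heart 3), Adamts3, a protease that activates VEGF-C (0.22 ± 0.07, with 2 of 2, and 0.12 averaged over its probe sets), and Hspg2, the basement membrane proteoglycan perlecan (0.26 ± 0.10, with 1 of 2, and 0.12 averaged). Of the 20 that were neither, 5 are given here outside the naming rule, chosen after their values were seen as ligands or direct partners of these receptors: Pgf (0.12 ± 0.08), Vegfd (-0.17 ± 0.08), Angpt4 (-0.12 ± 0.08), Nrp2 (0.24 ± 0.17, and 0.061 without GRK2+/- heart 2) and the Tek phosphatase Ptprb (0.18 ± 0.09), each with an unadjusted p above 0.05.

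Of 37 intracellular signalling genes, 5 (13.5%) were higher and 5 (13.5%) lower at an unadjusted p under 0.05 (limma). Over all genes 6.3% were higher and 7.7% lower, and those shares apply to every pathway list. The median of the signalling list was -0.004 and turned sign with the processing (0.025 after centring each array). The named ones were the phospholipase Plcg2 (-0.26 ± 0.08), the exchange factor Sos1 (0.24 ± 0.07, with 2 of 5 probe sets in that direction, and 0.060 averaged) and Pik3r1, a regulatory subunit of PI3-kinase (-0.42 ± 0.14, with 4 of 4, and -0.66 on its most variable probe set). Of 22 genes of oxygen sensing and Vegfa control, 5 (22.7%) were higher and 1 (4.55%) lower. Their median was 0.040 (0.0039 without GRK2+/- heart 3, 0.089 without GRK2+/- heart 1, -0.0066 when genes were read by their most variable probe set). The coactivator Ppargc1b, which can induce Vegfa, differed by 0.84 ± 0.11, Sp1, which binds GC boxes, by 0.49 ± 0.09 with 3 of 3 probe sets in that direction (0.28 averaged), and Egr1 by 2.55 ± 0.60. Egr1 was 9.31, 11.12 and 12.55 in GRK2+/- hearts 1, 2 and 3 and 8.61, 8.33 and 8.39 in WT hearts, so GRK2+/- heart 1 was the lowest of its group. Over the 19 member probe sets that heart was the lowest of its group on 8 and the highest on 8. A link between Egr1 and the members was not tested. Hif1a, named after its value was seen, differed by 0.37 ± 0.12 with 2 of 4 probe sets in that direction (0.15 averaged). Epas1, named likewise, differed by 0.072 ± 0.067 and by -0.039 averaged over its probe sets.

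Of 21 endothelial transcription factors, 7 (33.3%) were higher and 3 (14.3%) lower, beside 6.3% and 7.7% of all genes. Their median was 0.081, and it was 0.011 without GRK2+/- heart 2 and 0.16 without GRK2+/- heart 1. Prox1, the lymphatic master regulator, was 7.61, 7.49 and 7.64 in GRK2+/- hearts and 6.97, 7.19 and 6.78 in WT hearts, a difference of 0.60 ± 0.10 with 3 of 3 probe sets in that direction. Klf4, a shear-responsive factor, differed by 0.52 ± 0.11 and the ETS factor Fli1 by 0.42 ± 0.11, each with 2 of 2. Of 19 genes of tip and stalk cells, the leading and trailing cells of a vessel sprout, 5 (26.3%) were higher and 3 (15.8%) lower. Their median was 0.11 (0.063 without GRK2+/- heart 3, 0.16 without GRK2+/- heart 1, 0.048 with probe sets averaged). The chemokine Cxcl12 differed by 0.51 ± 0.09 (2 of 3 probe sets in that direction), the arterial ligand Efnb2 by 0.40 ± 0.09 (3 of 4) and the endothelial receptor Notch4 by -0.43 ± 0.10 (2 of 3). Averaged over their probe sets, these differed by 0.23, 0.19 and -0.16.

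Markers of cell types were set beside these values, and their part in the members' differences was not tested. Over all genes, 6.3% were higher and 7.7% lower at an unadjusted p under 0.05 (limma). Those shares apply to every marker list, here and in the next paragraph, and several counts lie near them. Of 17 endothelial markers, 1 was higher and 3 lower at an unadjusted p under 0.05, with a median difference of -0.027, and their summed level was 163.1 to 165.5 in GRK2+/- hearts and 163.2 to 165.3 in WT hearts. The named ones pointed both ways: the junction protein Cldn5 differed by 0.55 ± 0.16 (0.36 without GRK2+/- heart 2), the water channel Aqp1 by -0.57 ± 0.10 and the receptor Robo4 by -0.31 ± 0.08. Pecam1 and Cdh5, also in that list and named after their values were seen, differed by -0.12 ± 0.07 and 0.13 ± 0.08. The median of the endothelial list changed sign with the processing: it was 0.087 without GRK2+/- heart 1, 0.025 without WT heart 2, 0.007 without GRK2+/- heart 3, 0.073 with the mean or the most variable of a gene's probe sets, 0.002 after centring each array and 0.005 once the gene span trend was removed. Of 7 lymphatic markers, 1 was higher (Prox1) and 1 lower (Lyve1, -0.30 ± 0.12, and -0.50 on its most variable probe set), and Reln differed by 0.15 ± 0.07 (0.030 averaged); their summed level was 48.3 to 49.1 against 48.0 to 48.7.

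Of 14 markers of smooth muscle and pericytes, the cells that wrap vessels and make Angpt1, 5 were higher and 0 lower, with a median of 0.15 (0.075 without GRK2+/- heart 3, 0.23 on the most variable probe sets) and summed levels of 135.7 to 137.1 against 134.2 to 135.2 without overlap. Myh11 differed by 0.47 ± 0.09 (0.27 averaged), Notch3 by 0.36 ± 0.10 and Abcc9 by 0.23 ± 0.08 (0.15 averaged). Of the 14 markers, 9 lay above 0 and 5 below, the lowest at -0.17. Of 8 neutrophil markers, 3 were higher and 0 lower. Their summed levels were 55.4 to 58.3 against 52.5 to 52.8, and heart 1 was the lowest of the GRK2+/- hearts. S100a9 (2.25 ± 0.33) and S100a8 (1.97 ± 0.29) made up most of that difference, Csf3r differed by 0.33 ± 0.10 (0.22 without WT heart 2), and the median of the list was 0.13 (0.037 without WT heart 1), with 5 markers above 0 and 3 below. Of 9 epicardial markers, 3 were higher and 0 lower, with summed levels of 56.5 to 56.6 against 54.8 to 55.5, without overlap. These were Wt1 (0.51 ± 0.12), Lrrn4 (0.39 ± 0.13, and 0.25 without GRK2+/- heart 3) and Upk3b (0.17 ± 0.07). The median of the list was 0.14 (0.092 without GRK2+/- heart 2), with 8 markers above 0 and 1 below. All 9 lay below the median level of all genes, with a mean level of 6.20 against that median of 7.24. Lrrn4 lay below the 25th percentile of level. Of 8 atrial cardiomyocyte markers, 1 was higher and 2 lower, and their summed level was 54.6 to 55.7 in GRK2+/- hearts and 55.8 to 56.0 in WT hearts, without overlap. Nppa, the atrial natriuretic peptide, had the largest difference (-1.20 ± 0.27), beside Bmp10 (-0.19 ± 0.08) and Nr2f1 (0.18 ± 0.08). Nr2f1 also lay below the 25th percentile of level. Of the 8 markers, 5 lay above 0 and 3 below, so the lower sum rested on Nppa. The median of the list was 0.080, and it was -0.012 when probe sets were averaged per gene, -0.15 on the most variable probe sets, -0.037 over genes at or above the 25th percentile of level and -0.62 over those at or above the median level. In the remaining lists, 1 of 12 cardiomyocyte markers was higher and 0 lower, 2 of 11 fibroblast markers were higher and 0 lower, 2 of 11 markers of other leukocytes were higher and 1 lower, and 0 of 4 red cell and 0 of 6 adipocyte markers were either, with summed levels that overlapped between groups in each of these lists.

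**Figure D4:**
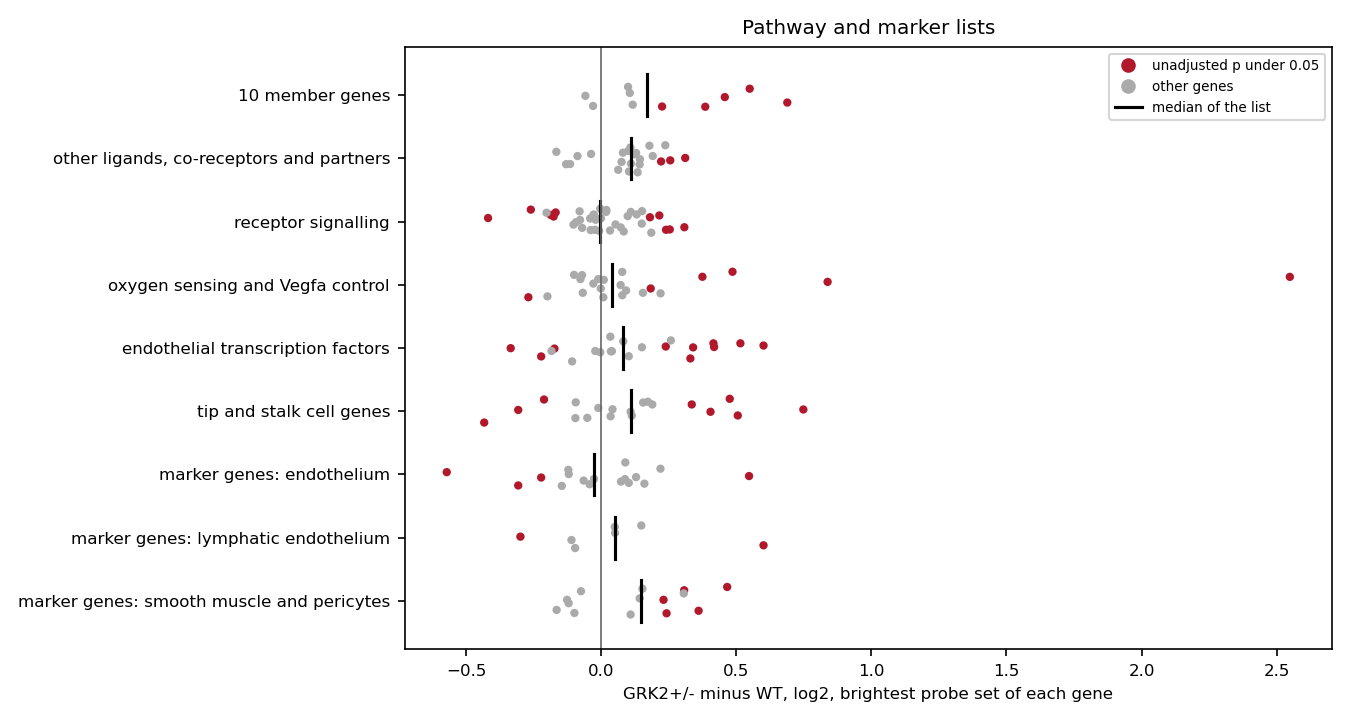
Difference between GRK2+/- and WT means (log2, brightest probe set of each gene) for the 10 member genes, the 5 pathway lists and 3 marker lists; each point is a gene, red points have an unadjusted limma p under 0.05 and black bars are list medians. The median of the member genes is 0.17, that of the endothelial markers -0.027, and Egr1 at 2.55 is the point farthest from 0.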

How the data were processed

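RNA of 6 hearts was hybridised to Affymetrix arrays. The authors deposited log2 values, and the submitters' processing notes name RMA and limma; versions, and joint or separate normalisation, are not stated in the sources used here. Of 45101 probe sets, 64 controls were left out and 45037 tested; 34945 had 1 gene symbol in the platform annotation, updated through the Entrez identifier with RefSeq (GRCm38.p6). Genes were read by the probe set with the highest mean. Differences are GRK2+/- minus WT from a two-sided moderated test in limma 3.58.1 (lmFit, then eBayes; R 4.3.3) with Benjamini-Hochberg adjustment over all probe sets or genes. The labels call the hearts separate samples, and their number limits the precision; arrays give no counting depth. The main limma fit of the gene values was tested on simulated data with known changes, and the other steps were not tested in that way. The members and lists were chosen with earlier results of these data known. Named were all members and, per list described, the 3 genes with the smallest p; lists given only as counts name none, and other genes are said to be chosen after their values were seen. Lists are described by counts and medians. Alternatives covered scaling, prior, array weights, filters, probe set rule, gene span, each heart left out and the replicate number as a block. Same-numbered hearts did not deviate together, and hearts were not paired by number in the main test. With 3 hearts per group, those correlations cannot exclude a shared litter.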

Additional observations from a re-analysis of the deposited data

How the results depend on the processing

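With 3 arrays per group and values near background for the dimmest probe sets, small differences could not be resolved. Of 284 values of the 19 member probe sets under alternatives, 271 kept their direction and stayed short of an adjusted p of 0.05, 12 turned sign and 1 passed. Alternatives that changed only the prior, the level filter, the block or the control probe sets left each difference as it was. In those the direction could not turn, so the count overstates how firmly direction held. The sign turned for 5 probe sets, all with differences near 0: Vegfa 1451959_a_at (0.011 after centring each array), Flt1 1419300_at (-0.021 after quantile normalisation, -0.0025 with array weights) and, with single hearts left out, Vegfa 1451959_a_at (-0.053 to 0.030), Vegfb 1451803_a_at (-0.086 to 0.022), Angpt1 1421441_at (-0.088 to 0.096), Flt1 1419300_at (-0.036 to 0.064) and Flt1 1451756_at (-0.13 to 0.010). Vegfb in the gene table was 0.0067 once the gene span trend was removed. Epas1 turned from 0.072 to -0.039 with probe sets averaged and to -0.15 on its most variable one. The cause of these turns was not tested.

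The 7 probe sets higher at an unadjusted p under 0.05 numbered 6 or 7 under every alternative run. The 1 lower (Flt1 1454037_a_at) was 0 after centring, after quantile normalisation and with the replicate block, and 0 to 1 with single hearts left out. The median difference was 0.066 to 0.14 and the count past the adjusted threshold 0 to 1 with single hearts left out, beside 0 to 41 of all 45037 probe sets. The ligand average was 0.19 and ligands minus receptors 0.0075 when each gene's probe sets were averaged. Among pathway genes, the count past the adjusted threshold was, in place of 0, 3 with a prior that had a trend on level, 1 with array weights, 1 with genes at or above the median level and 1 with the most variable probe set. Over all genes those settings called 42 of 18193, 12 of 18193, 6 of 9097 and 12 of 18193. With single hearts left out the pathway count was 0 to 5, beside 0 to 56 of all 18193 genes. The pathway counts at an unadjusted p were then 16 to 28 higher (16 without GRK2+/- heart 2) and 8 to 12 lower. Over all genes, 1614 (without WT heart 3) to 3031 (without WT heart 1) were called in either direction. The same-numbered hearts' deviations correlated at -0.14, -0.020 and 0.0095, and the replicate block left 0 members past the adjusted threshold, 7 higher and 0 lower. With that block Nppa, at the same difference of -1.20, passed the adjusted threshold. Nppa was not alone among the named marker genes: S100a9 and S100a8 each passed in 4 alternatives and Aqp1 in 2. Of the named pathway genes, Ppargc1b passed in 5, Sp1 and Cxcl12 in 2 each, and Klf4 and Egr1 in 1 each.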
